A study of Homo sapiens with 21 samples.

Results

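The long arm of chromosome 3 is often gained in squamous carcinomas, and 10 of its genes are repeatedly named as candidates for what the gain does: TP63, SOX2, PIK3CA, PRKCI, ECT2, SENP2, DCUN1D1, TFRC, ACTL6A and FXR1. They were taken by symbol from the 3 deposited tables, which held 17756 gene names for chromosome 3 mRNA, 19854 for ribosome footprints and 20036 for chromosome 8 mRNA, and each of the 10 was found in each table. On the GRCh38 build they lie in bands 3q26 to 3q29, in the order PRKCI, ECT2, PIK3CA, ACTL6A, FXR1, SOX2, DCUN1D1, SENP2, TP63 and TFRC. The RefSeq start of PRKCI at position 170222424 and the end of TFRC at position 196082090 of chromosome 3 bound the interval.

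The cells were a human lung epithelial cell line in which single chromosome arms had been altered, so that each altered line could be set against a near-isogenic WT line. The chromosome 3 set held polyadenylated mRNA of cells with genotype 3p loss, 3q gain or Chr3 WT, and ribosome-protected fragments (RPF, the mRNA pieces covered by ribosomes) of cells with genotype 3p loss or 3p WT. The chromosome 8 set held mRNA of cells with genotype 8p loss or 8p WT. Each of the 7 groups had 3 libraries, 21 in all, which the labels call biological replicates. The labels do not say how many clones stand behind a genotype, so a difference between lines can include differences between clones that are unrelated to the arm. They also do not say whether the RPF line called 3p WT is the mRNA line called Chr3 WT. Per the labels, cells for footprinting received cycloheximide, which halts ribosomes on the mRNA, for 5 min.

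TP63 encodes p63, the transcription factor that keeps the basal cells of stratified epithelia and of the airway in their undifferentiated state. SOX2 is a second lineage transcription factor of the airway and oesophagus. PIK3CA encodes the catalytic subunit p110-alpha of phosphoinositide 3-kinase, which makes the lipid signal that activates AKT. PRKCI encodes the atypical protein kinase C iota of the cell polarity complex, and ECT2 encodes the exchange factor that activates RhoA at the cleavage furrow of dividing cells. DCUN1D1 helps attach the ubiquitin-like protein NEDD8 to cullins, and SENP2 removes the ubiquitin-like protein SUMO from its targets. TFRC is the transferrin receptor that brings iron into the cell, ACTL6A is an actin-related subunit of the BAF, INO80 and TIP60 chromatin complexes, and FXR1 is an RNA-binding protein of the fragile X family.

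The start regions of 4 genes on which the results below turn are shown, 5′ to 3′ on the gene's own strand, from 250 bases before to 50 bases after a RefSeq start on GRCh38.p14. Capitals mark the GC box (GGGCGG or CCGCCC), the CCAAT box (CCAAT or ATTGG) and the core of the cAMP response element (TGACGT or ACGTCA), each searched on both strands. The TP63 region lies at chr3:189631139-189631438 on the plus strand, the ECT2 region at chr3:172750476-172750775 on the plus strand, and the TFRC region at chr3:196082041-196082340 on the minus strand. ECT2 has a second RefSeq start region on the plus strand, at chr3:172750752-172751051, which is not shown. DCUN1D1 has 2 RefSeq starts on the minus strand, an upstream one at chr3:182985869-182986168 and a downstream one at chr3:182980489-182980788.
TP63: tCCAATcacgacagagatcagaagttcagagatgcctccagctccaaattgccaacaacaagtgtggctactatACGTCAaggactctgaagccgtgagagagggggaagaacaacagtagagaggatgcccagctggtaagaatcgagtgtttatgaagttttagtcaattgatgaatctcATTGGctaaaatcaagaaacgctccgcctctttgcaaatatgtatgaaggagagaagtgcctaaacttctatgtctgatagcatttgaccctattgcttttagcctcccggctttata
ECT2: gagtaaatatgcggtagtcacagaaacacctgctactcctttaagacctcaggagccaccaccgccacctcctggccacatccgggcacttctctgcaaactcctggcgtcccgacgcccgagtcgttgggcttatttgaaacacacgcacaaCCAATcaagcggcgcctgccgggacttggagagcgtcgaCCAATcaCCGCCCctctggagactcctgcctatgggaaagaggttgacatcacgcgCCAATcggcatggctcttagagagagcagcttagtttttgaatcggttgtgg
TFRC: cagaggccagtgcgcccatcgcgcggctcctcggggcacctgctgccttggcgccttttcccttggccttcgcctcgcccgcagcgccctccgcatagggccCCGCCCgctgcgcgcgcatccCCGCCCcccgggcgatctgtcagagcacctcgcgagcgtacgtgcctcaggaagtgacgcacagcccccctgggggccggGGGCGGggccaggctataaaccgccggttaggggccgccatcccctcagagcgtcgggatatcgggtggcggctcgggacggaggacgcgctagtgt
DCUN1D1 upstream: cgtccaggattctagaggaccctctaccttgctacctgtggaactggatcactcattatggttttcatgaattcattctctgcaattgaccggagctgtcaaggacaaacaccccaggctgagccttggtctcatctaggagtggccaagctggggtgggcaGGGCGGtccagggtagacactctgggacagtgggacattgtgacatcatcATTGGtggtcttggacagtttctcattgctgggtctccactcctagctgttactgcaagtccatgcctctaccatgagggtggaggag
DCUN1D1 downstream: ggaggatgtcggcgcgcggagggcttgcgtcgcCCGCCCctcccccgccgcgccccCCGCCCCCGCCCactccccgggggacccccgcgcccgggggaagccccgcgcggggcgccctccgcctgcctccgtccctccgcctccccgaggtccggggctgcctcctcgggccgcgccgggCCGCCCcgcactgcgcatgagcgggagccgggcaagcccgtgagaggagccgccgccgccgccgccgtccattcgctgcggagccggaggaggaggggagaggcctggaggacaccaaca
The TP63 region held 2 CCAAT boxes, 1 cAMP response core and 7 CpG pairs, at 43.7% G and C. TFRC held 3 GC boxes and 37 CpG pairs at 73.3%, and the ECT2 region shown held 3 CCAAT boxes, 1 GC box and 19 CpG pairs at 56.3%. The second ECT2 region held 0 CCAAT boxes, 1 GC box and 25 CpG pairs at 63.3%. The DCUN1D1 starts differed from each other, with 3 CpG pairs at 53.0% G and C upstream and 44 at 81.7% downstream. RefSeq gave 11 such regions for 8 of the 10 genes. A GC box stood in 10 of the 11, against 45% of 35116 promoters of all genes, and a CCAAT box in 7, against 34.6%. The cAMP response core stood in 1, against 7.98%, and the E-box CACGTG in 0, against 7.26%. Several regions belong to the same gene and overlap, so these shares are a description. The tables give 1 value per gene, so TP63 isoforms that begin at other starts are not told apart. RefSeq places the start of the TP63 gene at position 189596746, outside the region shown. Which start these cells use was not tested.

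In the mRNA tables, levels were read as TPM, a transcript's share of the library after correction for length, though the files name no unit. This scale allows genes to be ranked. ACTL6A had the highest mean of the 10 in each of the 5 mRNA groups, and PIK3CA the lowest of the 9 that were clearly detected. In Chr3 WT cells the means were 116 ± 8.56 TPM (SD, n = 3) for ACTL6A, 87.3 ± 20.0 for TP63, 70.0 ± 20.3 for TFRC, 62.6 ± 7.04 for ECT2, 62.1 ± 5.42 for FXR1 and 57.8 ± 8.04 for PRKCI. From ACTL6A to PRKCI, the libraries of each gene overlapped with those of the next gene in this order. SENP2 at 34.1 ± 2.39, DCUN1D1 at 27.6 ± 5.10 and PIK3CA at 16.9 ± 2.14 TPM were each apart from their neighbours.

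SOX2 was all but absent. It was listed at 0 in every Chr3 WT and 3q gain library, at 0.0766, 0 and 0.0753 TPM in the 3p loss libraries, and at no more than 0.133 TPM in the chromosome 8 set. In the 6 RPF libraries together, 1 footprint of 45627664 counts fell on it, where 3 counts would correspond to 0.0657 CPM (counts scaled to a fixed library total). SOX2 lies on the gained arm, so a further copy of the gene by label came with no listed mRNA in 3q gain cells. SOX2 fell below the filters on low values and was not tested in the fits reported, and the counts below are over the other 9 genes.

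The labelled cell type was checked against marker genes. All 4 basal epithelial markers and all 5 general epithelial markers had a mean of at least 1 TPM or CPM in each of the 7 groups. Secretory markers summed to at most 0.851 TPM and endothelial markers to at most 0.491 TPM in any mRNA library. Other lung lists were low but not at 0. Alveolar markers summed to 3.28 to 8.23 TPM over the mRNA libraries, with AGER at group means of 3.72 to 6.79 TPM. Ciliated markers summed to 2.08 to 4.70 TPM and neuroendocrine markers to 0.225 to 3.34 TPM. The 5 leukocyte markers summed to 0.615 to 1.51 TPM in Chr3 WT, 5.14 to 7.54 in 3q gain and 1.47 to 9.18 in 3p loss libraries, most of it from CD14, while the defining leukocyte gene PTPRC was listed at 0 in all of them. The 5 fibroblast markers summed to 5.16 to 6.33 TPM in Chr3 WT, 2.75 to 6.79 in 3q gain and 8.00 to 123 in 3p loss libraries. In the RPF data they summed to 62.3 to 72.5 CPM in 3p loss against 22.4 to 24.4 in 3p WT. DCN carried most of the rise, at 2.96, 75.8 and 114 TPM in 3p loss libraries sorted by size. LUM had 0, 2.72 and 7.39 TPM in 3p loss against 0 in Chr3 WT, and COL1A1 a mean of 6.18 ± 0.99 against 3.64 ± 0.77 TPM. In footprints the means in 3p loss and 3p WT were 4.32 and 0.214 CPM for LUM and 17.2 and 10.5 CPM for COL1A1. COL1A2 and PDGFRA were at most 0.105 TPM in the chromosome 3 mRNA libraries. The part of these differences in the 3q gain and 3p loss results was not tested. In bulk samples, fewer cells of a type and less RNA per cell cannot be told apart.

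The first comparison asked how far an extra copy of 3q raised the mRNA of these genes. All 9 genes had a positive change in 3q gain cells, and 5 passed the test (limma on log2(TPM + 1), Benjamini-Hochberg adjusted over 11225 genes, p under 0.05): ACTL6A, SENP2, DCUN1D1, ECT2 and FXR1. Of all genes tested, 2.6% were called higher in this comparison, and 5.27% were called in either direction. The libraries of 8 of the 9 genes did not overlap between the groups, all being higher in 3q gain, where 15.5% of all genes were apart in that direction. The median change of the 9 genes was 0.55 on the log2 scale, with an SD of 0.10 between libraries, against 0.02 for all genes. An increase from 2 to 3 copies that passed fully into mRNA would give 0.58.

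**Figure D1:**
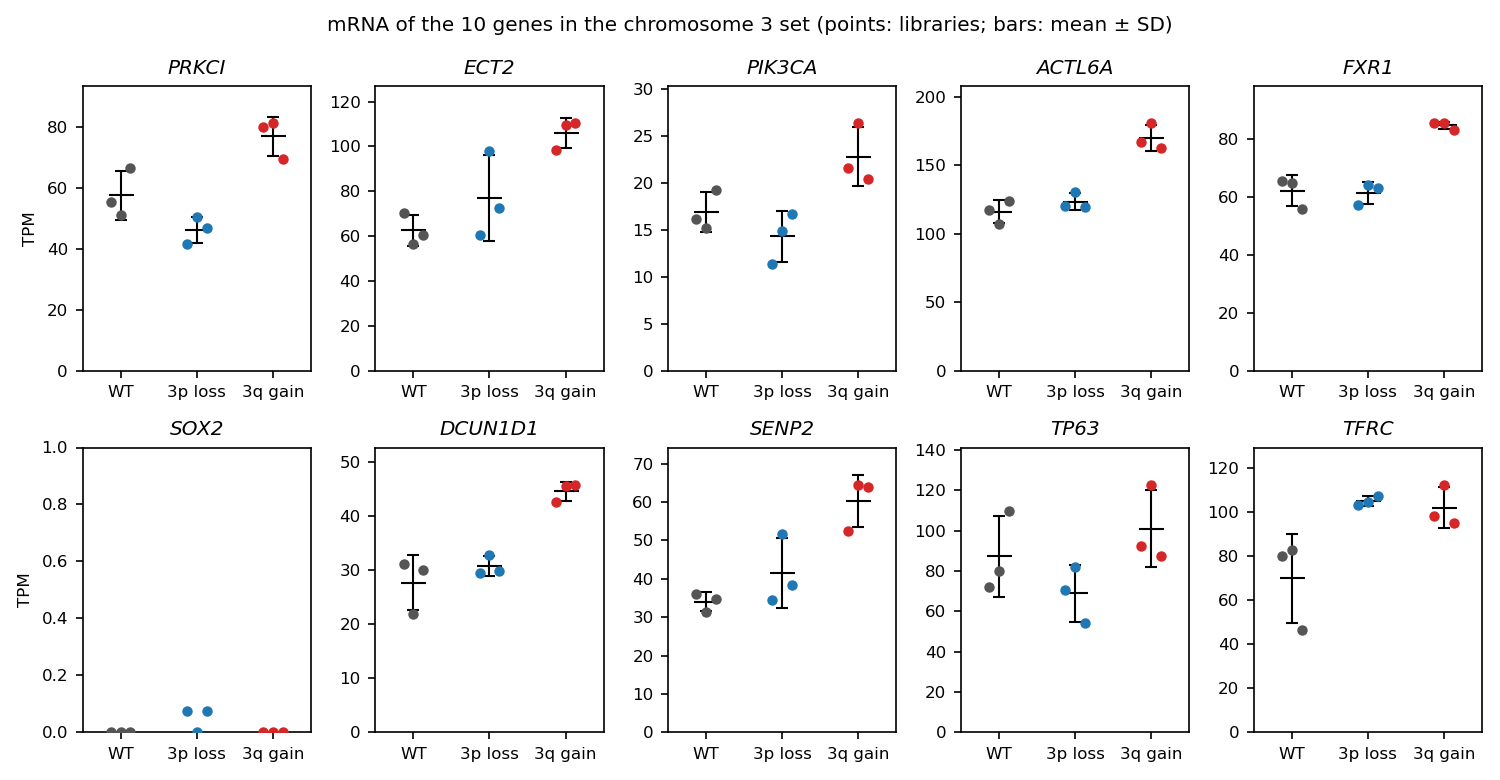
mRNA levels in TPM of the 10 genes in each library of the chromosome 3 set, with Chr3 WT in grey, 3p loss in blue and 3q gain in red. Points are libraries and bars are the mean ± SD of 3 libraries, drawn for all but SOX2. For ACTL6A the 3q gain points lie between 162 and 181 TPM, above all others, while for TP63 the groups overlap and for TFRC the 3p loss points lie beside those of 3q gain.

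Among the genes for protein modification, SENP2 had 36.0, 31.4 and 34.8 TPM in Chr3 WT and 52.3, 64.5 and 63.9 TPM in 3q gain libraries. Its change was 0.80 ± 0.16 (log2 ± SE, adjusted p = 0.0262, limma), the largest of the 9 genes in this comparison. DCUN1D1 had 31.2, 21.8 and 29.9 TPM in Chr3 WT and 42.5, 45.4 and 45.7 TPM in 3q gain libraries, a change of 0.69 ± 0.15 (adjusted p = 0.0313, limma). For both, every 3q gain library was above every WT library.

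ECT2, the regulator of cell division, had 70.4, 56.7 and 60.7 TPM in Chr3 WT and 98.4, 109 and 110.4 TPM in 3q gain, a change of 0.75 ± 0.17 (adjusted p = 0.0369, limma). ACTL6A, the chromatin subunit, had 118, 107 and 124 TPM in Chr3 WT and 167, 181 and 162 TPM in 3q gain, a change of 0.55 ± 0.10 (adjusted p = 0.0182, limma). FXR1, the RNA-binding protein, had 65.6, 64.8 and 55.8 TPM in Chr3 WT and 85.3, 85.2 and 83.1 TPM in 3q gain, a change of 0.44 ± 0.11 (adjusted p = 0.0462, limma). In all 3 genes the groups were apart, and the FXR1 libraries of 3q gain spanned little more than 2 TPM.

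The other 4 genes did not pass the test. TFRC had a mean of 102 ± 9.31 TPM in 3q gain and 70.0 ± 20.3 TPM in Chr3 WT (log2 change 0.58 ± 0.20, adjusted p = 0.120, limma), and its WT libraries stood at 80.3, 83.1 and 46.5 TPM. For the kinase genes, PRKCI had a change of 0.41 ± 0.13 (adjusted p = 0.106) and PIK3CA of 0.41 ± 0.18 (adjusted p = 0.197), with the groups apart in both. TP63 had 72.0, 80.1 and 109.9 TPM in Chr3 WT and 92.6, 123 and 87.5 TPM in 3q gain. It was the one gene of the 9 whose libraries overlapped, and its change of 0.21 ± 0.21 (adjusted p = 0.574) was the smallest. A missed threshold does not show that a level was equal.

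**Figure D2:**
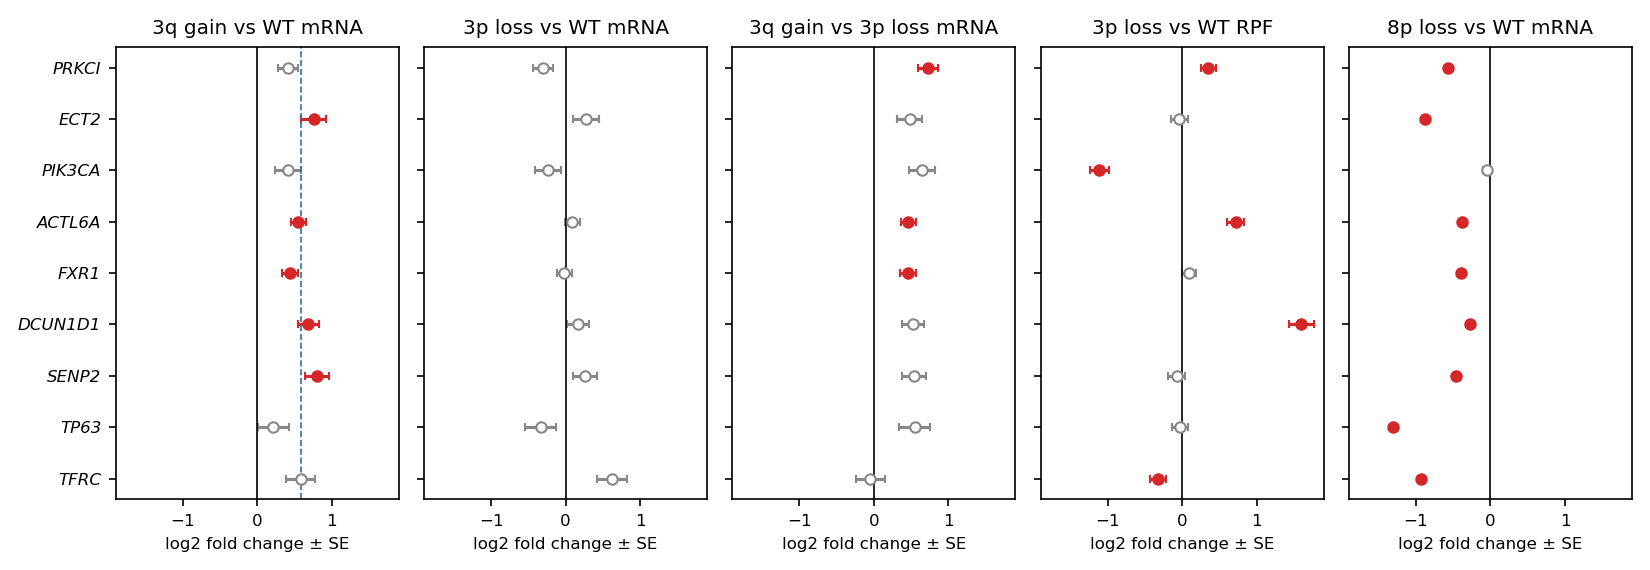
Log2 change ± SE of the 9 tested genes in 5 comparisons, ordered along 3q from PRKCI to TFRC. Filled red points passed an adjusted p of 0.05, open grey points did not, and the dashed line in the left panel marks 0.58, the log2 of 3 copies over 2. All 9 points lie above 0 in 3q gain, 8 are called below 0 in 8p loss, and the RPF changes in 3p loss spread from -1.11 to 1.60.

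The size of the change was shared with the rest of the arm. The 75 other tested genes between PRKCI and TFRC had a median change of 0.50, of which 22 (29.3%) were called higher and 1 lower. The 240 tested genes elsewhere on 3q had a median of 0.51, with 68 (28.3%) called higher, and the 321 tested genes of 3p had a median of 0.00. Along 3q in windows of 9 Mb, the median ran from 0.44 to 0.57 with no window at 0. The 18 closest tested neighbours of the 10 genes had a median of 0.50, and 5 were called higher (DNAJC19, MCCC1, PCYT1A, MRPL47 and TTC14). The 1 called lower was CLDN1, a tight junction gene next to TP63, at -1.14 ± 0.26 (adjusted p = 0.0369, limma).

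**Figure D3:**
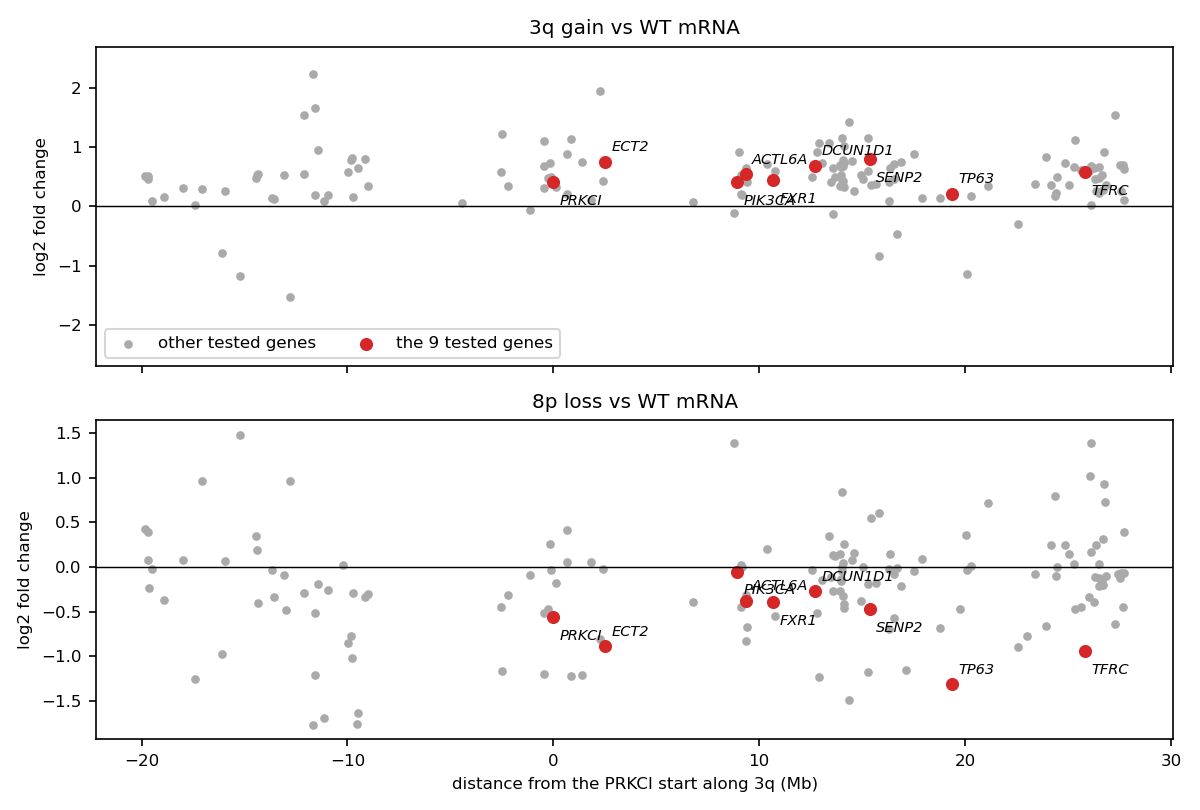
Log2 change of each tested gene of distal 3q against its distance in Mb from the start of PRKCI, in 3q gain (top) and 8p loss (bottom). Red points are the 9 tested genes of the set and grey points are other genes. In 3q gain most points of either colour lie near 0.5. In 8p loss the red points lie between -0.05 and -1.31 while many grey points lie on either side of 0.

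The calls of 3q gain depended on single libraries, while the direction did not. With Chr3 WT replicate 2, 3q gain replicate 2 or 3q gain replicate 3 left out, the number of genes of the set called was 0. Leaving out Chr3 WT replicate 3 gave 1, leaving out 3q gain replicate 1 gave 2 and leaving out Chr3 WT replicate 1 gave 4. At an unadjusted p under 0.05, 8 of the 9 genes passed with all libraries in limma, the only tool run on mRNA, as did 23.1% of all genes tested.

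The other genes of the pathways in which these 10 act were described from lists of known members. In 3q gain, 5.27% of all genes tested were called, and 29.3% of the 324 tested genes of 3q were called higher. Of 36 other cancer and growth genes of distal 3q, 11 were called higher in 3q gain and 1 lower, with a median of 0.47. Among them were the translation factor gene EIF4A2 at 0.72 ± 0.17 (adjusted p = 0.0444), the ribosomal protein gene RPL35A at 0.63 ± 0.09 (adjusted p = 0.00709) and the Notch target HES1 at 0.83 ± 0.14 (adjusted p = 0.0141, all limma). Of 29 genes of the PI3K and AKT pathway, 2 were called higher and 1 lower, with a median of -0.07. Those higher were PIK3CB, the p110-beta gene on 3q, at 0.70 ± 0.15 and the regulatory subunit gene PIK3R3 at 1.33 ± 0.27, and the one lower was EIF4EBP1, a translation repressor, at -1.03 ± 0.24.

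For the partners of ACTL6A and FXR1 and the other lists, the shares over all genes tested serve as background. In 3q gain, 5.27% of all genes were called and 23.1% had an unadjusted p under 0.05. Of 36 BAF, INO80 and TIP60 subunit genes, 0 were called in limma (3 at an unadjusted p under 0.05) and the median was -0.02. Of 21 FXR1 family and partner genes, 0 were called in limma (3 at an unadjusted p under 0.05) and the median was -0.01. Of 30 genes of the NEDD8 and cullin pathway, 2 were called higher, SKP1 at 0.48 ± 0.10 and CAND2 at 1.43 ± 0.33, with a median of 0.01. CAND2 had a mean of 1.36 TPM over the 3q gain and Chr3 WT libraries, near the filter of 1 TPM. In the SUMO pathway 1 of 22 was called, RANGAP1 at -0.93 ± 0.12. Among 16 iron genes 1 was called, the iron-responsive aconitase gene ACO1 at -0.53 ± 0.13. Of 20 genes of the polarity and RhoA module 1 was called, SQSTM1 at 0.96 ± 0.23. Of 33 genes of the basal and squamous programme that p63 governs, 1 was called higher and 3 lower, with a median of -0.15. KRT14, a basal keratin, had 611, 1664 and 1862 TPM in Chr3 WT libraries, sorted by size, and 10.5, 72.8 and 81.8 TPM in 3q gain, a change of -4.91 ± 0.84 (adjusted p = 0.0143, limma). The receptor gene FGFR3 was the one called higher, at 1.11 ± 0.22 (adjusted p = 0.0220, limma). The basal keratin genes KRT5, at 0.25 ± 0.31, and KRT15, at 1.11 ± 0.86, were not called, and are named after their values were seen.

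The second comparison asked whether loss of the other arm, 3p, left these genes at their WT level. None of the 9 passed the test in 3p loss mRNA (limma, 0 called, 2 at an unadjusted p under 0.05). Of all genes tested, 15.0% were called and 30.7% had an unadjusted p under 0.05. With each library centred on its median, the split of called genes moved from 693 higher and 988 lower to 1118 higher and 850 lower. The median change of the 9 genes was 0.09, with an SD of 0.11 between libraries, against 0.01 for all genes and -0.89 for 321 genes of 3p. Both this comparison and the first use the same Chr3 WT libraries.

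TFRC stood out from the other 8 by its size. It had 80.3, 83.1 and 46.5 TPM in Chr3 WT and 103, 105 and 108 TPM in 3p loss libraries, so that the groups were apart, as they were for 33.7% of all genes. Its change was 0.63 ± 0.20 (adjusted p = 0.0629, limma), and it passed at an adjusted p of 0.0421 without Chr3 WT replicate 2. Without Chr3 WT replicate 3, the library at 46.5 TPM, its change was 0.36. Over the libraries left out in turn, its adjusted p ran from 0.0421 to 0.135. PRKCI was the other gene with the groups apart, at 55.4, 51.2 and 66.7 TPM in Chr3 WT and 41.7, 50.4 and 46.8 TPM in 3p loss (-0.31 ± 0.13, adjusted p = 0.154). TP63 had a change of -0.33 ± 0.21 and PIK3CA of -0.23 ± 0.18, with overlapping libraries. ECT2 at 0.27 ± 0.17, SENP2 at 0.26 ± 0.16, DCUN1D1 at 0.16 ± 0.15, ACTL6A at 0.09 ± 0.10 and FXR1 at -0.02 ± 0.11 overlapped as well.

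Of 36 BAF, INO80 and TIP60 subunit genes, 4 were called lower in 3p loss mRNA and 0 higher, and of 20 genes of the polarity and RhoA module, 3 were called lower and 1 higher. SMARCC1, a core BAF subunit gene on 3p, changed by -1.16 ± 0.18 (adjusted p = 0.00341) and RHOA, the target of ECT2 and also on 3p, by -0.88 ± 0.08 (adjusted p = 0.000490, both limma). RHOA had 526 to 537 TPM in Chr3 WT and 275 to 300.3 TPM in 3p loss. Of 16 iron genes, 2 were called higher and 2 lower. FTH1, the heavy chain of the iron store ferritin, had 2553 to 3554 TPM in Chr3 WT and 7066 to 7420 TPM in 3p loss, a change of 1.27 ± 0.18 (adjusted p = 0.00203, limma).

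The altered lines were also compared directly. In 3q gain against 3p loss, PRKCI, ACTL6A and FXR1 were called higher, 3 of 9 genes, where 3.06% of all genes tested were called higher and 3.93% in either direction. The libraries of 8 of the 9 genes were apart, all higher in 3q gain, against 12.8% of all genes. The median change was 0.52, against 0.01 for all genes. Same-numbered libraries of these lines deviated together weakly, and with the replicate number as a block 1 of the 9, PRKCI, remained called.

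PRKCI had 80.1, 81.4 and 69.7 TPM in 3q gain and 41.7, 50.4 and 46.8 TPM in 3p loss, a change of 0.72 ± 0.13 (adjusted p = 0.0172, limma; 0.0477 with the block). ACTL6A changed by 0.46 ± 0.10 (adjusted p = 0.0356, and 0.0803 with the block) and FXR1 by 0.46 ± 0.11 (adjusted p = 0.0455, and 0.0842 with the block, limma). TP63 had 92.6, 123 and 87.5 TPM against 70.7, 81.8 and 54.1 TPM. Its groups were apart here, but its change of 0.55 ± 0.21 did not pass (adjusted p = 0.227, limma). TFRC, with 98.5, 113 and 95.0 TPM against 103, 105 and 108 TPM, was the one gene whose libraries overlapped (-0.05 ± 0.20, adjusted p = 0.959). PIK3CA at 0.64 ± 0.18, SENP2 at 0.54 ± 0.16, DCUN1D1 at 0.52 ± 0.15 and ECT2 at 0.48 ± 0.17 lay in the same range as the called genes without passing. With replicate 1 or 3 of 3p loss, or replicate 1 or 2 of 3q gain, left out, none of the 9 was called. Leaving out 3q gain replicate 3 gave 1, and leaving out 3p loss replicate 2 gave 4.

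Across the 9 chromosome 3 libraries, the genes whose log2 levels tracked TP63 most closely were PRKCH, a protein kinase C gene on chromosome 14, ADAP1 on chromosome 7 and WASF1 on chromosome 6. The root mean square differences of their centred log2 levels from those of TP63 were 0.134, 0.136 and 0.140, over 9513 genes compared. The level of TP63 itself varied by 0.328 on that measure.

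Footprints were compared between 3p loss and 3p WT cells. The RPF values are in CPM and carry no correction for length, so they are compared only within a gene. Footprint counts of 9 genes passed the filter, and 5 were called (edgeR's quasi-likelihood test, Benjamini-Hochberg adjusted over 11425 genes): DCUN1D1, ACTL6A and PRKCI higher, PIK3CA and TFRC lower. Of all genes tested, 69.3% were called, 35.1% higher and 34.2% lower, so 5 of 9 is not a high share. The median change of the 9 genes was -0.03, against 0.02 for all genes. The 75 other tested genes between PRKCI and TFRC had a median of 0.12, with 27 called higher and 25 lower, and those of 3p a median of -0.97.

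DCUN1D1 had 44.9, 46.9 and 29.9 CPM in 3p WT and 131, 132 and 104 CPM in 3p loss, a change of 1.60 ± 0.16 (adjusted p = 2.81e-06, edgeR). ACTL6A had 163, 157 and 163 CPM in 3p WT and 293, 276 and 219 CPM in 3p loss, a change of 0.72 ± 0.11 (adjusted p = 8.31e-05, edgeR). PIK3CA had 106, 108 and 93.6 CPM in 3p WT and 39.2, 45.5 and 53.9 CPM in 3p loss, a change of -1.11 ± 0.13 (adjusted p = 8.32e-06, edgeR). In all 3 genes the groups were far apart relative to the spread within a group.

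Smaller changes were called for PRKCI, from a mean of 106 ± 7.60 to 133 ± 6.45 CPM (0.35 ± 0.10, adjusted p = 0.00720, edgeR), and for TFRC, from 408 ± 40.5 to 323 ± 29.6 CPM (-0.33 ± 0.10, adjusted p = 0.0119). The groups of these genes did not overlap either, as was so for 73% of all genes. TP63, with 142, 142 and 119 CPM in 3p WT and 120.4, 140.4 and 129.6 CPM in 3p loss, was not called, and neither were ECT2, SENP2 and FXR1. Their changes lay between -0.08 and 0.09. Replicates 1 and 2 of each RPF group differed little beyond counting noise, with a chi-square per degree of freedom of 1.34 in 3p WT and 1.38 in 3p loss, against 6.94 to 12.4 for the other pairs. With replicates 1 and 2 summed into 1 library, 3 genes were called, and PRKCI (adjusted p = 0.0558) and TFRC (adjusted p = 0.0843) no longer passed. TFRC also missed the threshold without 3p WT replicate 1 (adjusted p = 0.0598) and without 3p WT replicate 2 (adjusted p = 0.0506, edgeR).

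**Figure D4:**
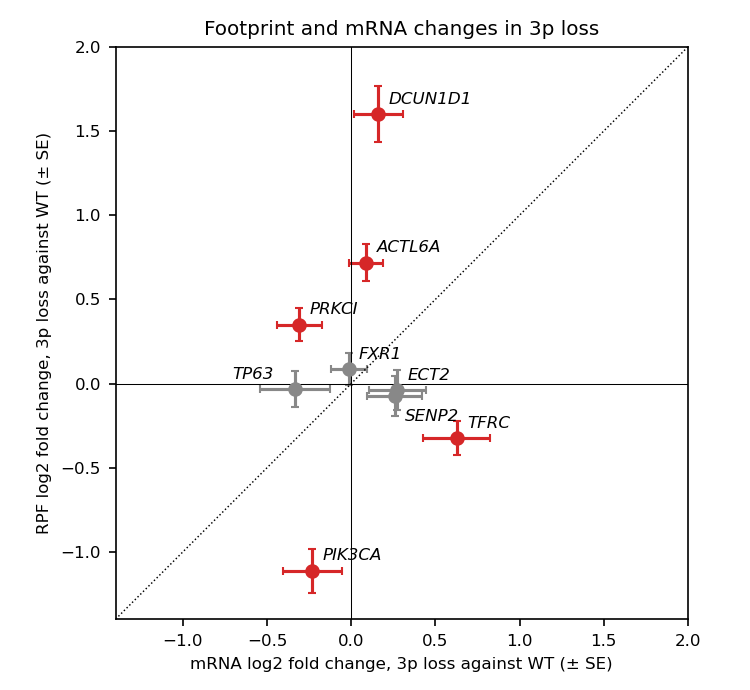
Log2 change in 3p loss against WT of footprints (vertical axis, ± SE) and of mRNA (horizontal axis, ± SE) for the 9 tested genes. The dotted line marks equal changes, and red points are the 5 genes whose changes differed between the assays at an adjusted p under 0.05. DCUN1D1, ACTL6A and PRKCI lie above the line, PIK3CA and TFRC below it.

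The footprint and mRNA changes of 3p loss were then set against each other, as the interaction of assay and genotype in limma, a comparison added after the values were seen. Of 10223 genes tested in both assays, 35.4% were called, 17.4% with the footprint change above the mRNA change and 18% below, and of the 9 genes 5 were. DCUN1D1 had a footprint change that exceeded its mRNA change by 1.42 ± 0.26 (adjusted p = 0.00133), PRKCI by 0.64 ± 0.18 (adjusted p = 0.0127) and ACTL6A by 0.61 ± 0.17 (adjusted p = 0.0127, limma). For TFRC the difference was -0.96 ± 0.25 (adjusted p = 0.0105) and for PIK3CA -0.91 ± 0.23 (adjusted p = 0.00915). Of these 5 genes, TFRC and PRKCI had footprint and mRNA changes of opposite sign, though neither mRNA change was called. ECT2, SENP2 and FXR1 also had opposite signs, and were called in neither assay. The 5 calls held in 19 of the 20 alternatives run. With RPF replicates 1 and 2 summed into 1 library, added because they differed so little, DCUN1D1 (adjusted p = 0.0100) and PRKCI (adjusted p = 0.0459) remained called. TFRC (adjusted p = 0.0562), PIK3CA (adjusted p = 0.0679) and ACTL6A (adjusted p = 0.0734, limma) no longer passed, with the sign of each difference kept. Assay and library preparation differ together here, as may the WT lines, and these cannot be told apart.

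The pathways around these genes in the footprints gave mixed counts, to be read beside the share over all genes. Of all genes tested, 69.3% were called, 35.1% higher and 34.2% lower. Of 27 PI3K and AKT genes, 3 were called higher and 18 lower, with a median of -0.66 against 0.02 for all genes. MTOR changed by -1.02 ± 0.10 and TSC2 by -0.96 ± 0.11, in the same direction as PIK3CA. Of 29 NEDD8 and cullin genes 13 were called higher and 10 lower, among them SKP1 at 1.27 ± 0.14. FTH1, which had risen in 3p loss mRNA, fell in footprints from a mean of 325 ± 43.1 to 158 ± 19.6 CPM (-1.02 ± 0.12, adjusted p = 7.14e-06, edgeR), so that ferritin and transferrin receptor footprints were both lower. Of 32 basal programme genes 11 were called higher and 18 lower, with KRT5 at -0.42 ± 0.07 and KRT6A at -2.14 ± 0.07. Among those called higher were the keratin genes KRT17 at 0.56 ± 0.08 and KRT15 at 2.07 ± 0.19, both named after their values were seen. TP63 footprints were not called beside these.

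The chromosome 8 set gave a look at the same genes with both arms of chromosome 3 outside the labelled change. In 8p loss against 8p WT, 8 of the 9 genes were called lower and none higher (limma over 12302 genes), where 36.0% of all genes were called lower and 69.1% in either direction. The libraries of the same count of 8 genes were apart, all lower, against 38.6% of all genes. The median change was -0.47, with an SD of 0.04 between libraries, against -0.01 for all genes. The 78 other tested genes between PRKCI and TFRC had a median of -0.08, with 33 (42.3%) called lower and 17 higher, and the rest of 3q had a median of -0.02. The distal arm was not uniform, since windows of 9 Mb, the genes of the set included, had medians of -0.34 from 154 to 163 Mb, -0.45 from 163 to 172 Mb and -0.38 from 172 to 181 Mb. PRKCI, ECT2, PIK3CA, ACTL6A and FXR1 lie in the latter 2 windows. Beyond them the medians were -0.14 from 181 to 190 Mb and -0.07 from 190 Mb to the end of the arm. The 17 closest tested neighbours of the 10 genes had a median of -0.18, with 9 called lower and 3 higher. The 146 tested genes of 8p had a median of -0.83.

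**Figure D5:**
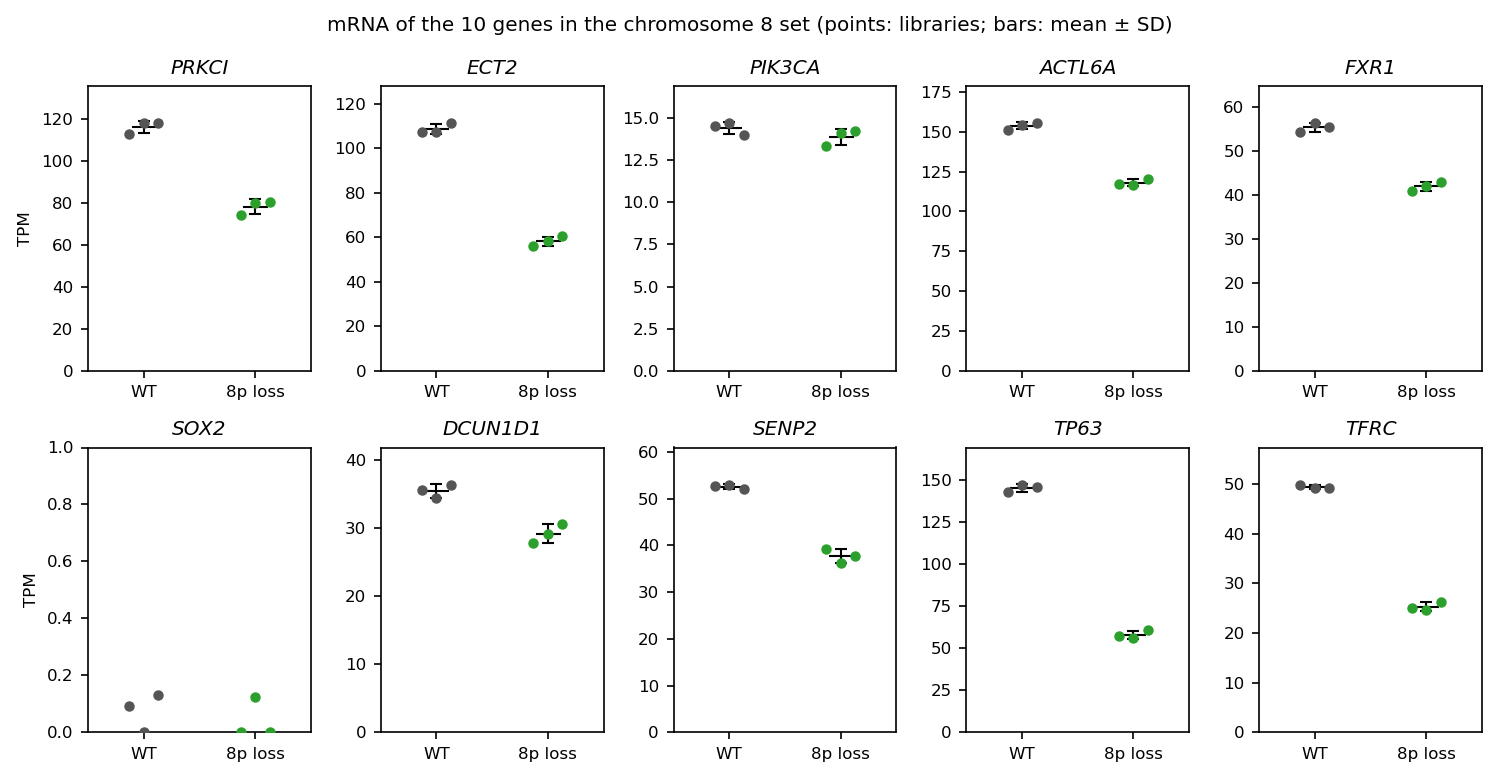
mRNA levels in TPM of the 10 genes in each library of the chromosome 8 set, with 8p WT in grey and 8p loss in green. Points are libraries and bars are the mean ± SD of 3 libraries, drawn for all but SOX2. The groups are apart in 8 genes, most widely for TP63 at 143 to 147 TPM against 56.1 to 60.6 TPM, and overlap for PIK3CA.

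TP63 changed most. It had 143, 147 and 146 TPM in 8p WT and 57.1, 56.1 and 60.6 TPM in 8p loss libraries, a change of -1.31 ± 0.04 (adjusted p = 4.87e-07, limma). TFRC had 49.9, 49.3 and 49.2 TPM in 8p WT and 25.1, 24.6 and 26.3 TPM in 8p loss, a change of -0.94 ± 0.04 (adjusted p = 1.75e-06, limma). ECT2 had 107, 107 and 111 TPM in 8p WT and 56.3, 58.2 and 60.4 TPM in 8p loss, a change of -0.89 ± 0.04 (adjusted p = 1.96e-06, limma). Each of these differences was many times the SD within a group, which was at most 2.35 TPM for these 3 genes. That SD is a spread between libraries of a line, and for TP63 it was 2.27 TPM in 8p WT against 20.0 TPM in Chr3 WT. It does not measure differences between clones, whose number is not stated.

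PRKCI had a mean of 116 ± 3.07 TPM in 8p WT and 78.4 ± 3.67 TPM in 8p loss, a change of -0.56 ± 0.04. SENP2 changed by -0.47 ± 0.04, FXR1 by -0.39 ± 0.03, ACTL6A by -0.38 ± 0.03 and DCUN1D1 by -0.27 ± 0.05 (adjusted p = 0.00158 for DCUN1D1, limma). PIK3CA, with 14.5, 14.7 and 14.0 TPM in 8p WT and 13.3, 14.1 and 14.2 TPM in 8p loss, was the one gene not called (-0.05 ± 0.05, adjusted p = 0.361). The 8 calls held in each alternative run and without each library in turn.

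The 4 basal epithelial markers summed to 10703 to 11149 TPM in 8p WT and 3664 to 3744 TPM in 8p loss, and the 5 general epithelial markers to 1635 to 1710.3 against 705 to 807 TPM. The list counts that follow stand beside 69.1% of all genes called in 8p loss, with 36.0% called lower. Of 33 genes of the basal and squamous programme, 23 were called lower and 9 higher, with a median of -0.72. KRT5, a basal keratin and known p63 target, had 6017 to 6435 TPM in 8p WT and 1762 to 1793 TPM in 8p loss, a change of -1.81 ± 0.03 (adjusted p = 1.51e-07, limma), and KRT17 changed by -1.39 ± 0.04. The part of these markers in the changes of the 9 genes was not tested. Of 29 PI3K and AKT genes 10 were called higher and 13 lower, with a median of 0.00. The partners of ACTL6A had 9 called higher and 15 lower of 36, and those of FXR1 had 5 higher and 6 lower of 21. The iron genes had 8 called higher and 7 lower of 18, with FTH1 at 0.38 ± 0.13 while TFRC was lower.

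The order of levels also changed between the groups of the chromosome 8 set. In 8p WT the order ran ACTL6A, TP63, PRKCI, ECT2, FXR1, SENP2, TFRC, DCUN1D1 and PIK3CA, and every neighbour in it was apart. In 8p loss TP63 moved from the second to the fourth place, at 57.9 ± 2.35 TPM, where its libraries overlapped with those of ECT2 at 58.3 ± 2.04 TPM. TFRC moved from the seventh to the eighth place, below DCUN1D1 at 29.2 ± 1.39 TPM. The tables were normalised separately, so levels of the chromosome 3 and chromosome 8 sets were not tested against each other.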

How the data were processed

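The authors deposited whole-number counts of footprints per gene without normalization. Their mRNA tables, as deposited, hold length-scaled values, read here as TPM because each library sums to 861114 to 916783. The files name no unit, so FPKM could not be told apart, and the depth behind these values is unknown. RPF libraries held 4622326 to 13607875 counts. The build was GRCh38, per the submitters' processing notes. Aligner, counter and annotation are not given in the sources used here. From the RPF table, 1061 names given by transcript (0.432 to 0.568% of counts) were left out. In the chromosome 8 table, 30 entries sharing a name were summed.

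For mRNA, limma 3.58.1 in R 4.3.3 was run with a trend on log2(TPM + 1), which understates changes of low genes, where the mean reached 1 TPM. All 9 chromosome 3 libraries entered 1 fit. RPF counts were tested with edgeR 4.0.16 (TMM, filterByExpr, prior count 2) and, as an alternative, DESeq2 1.42.0. Adjusted p is Benjamini-Hochberg over all genes tested, called under 0.05. Positions and promoters came from RefSeq, with chromosome 3 split at 91 Mb. Pathway genes were named by mean level among those called, up to 3 per list in 3q gain and up to 2 elsewhere, and a gene this rule would name is not reported here.

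Same-numbered 3q gain and 3p loss libraries deviated together weakly (r of 0.120 to 0.158 between deviations from group means), so the replicate block is given beside that comparison. Differently numbered libraries of these lines had r of -0.190 to 0.0327. Elsewhere differently numbered libraries reached 0.128, for Chr3 WT replicate 2 with 3q gain replicate 1, so values of this size do not establish a pairing. Same-numbered libraries had r of 0.0360 to 0.124 in RPF and -0.00948 to 0.217 in the chromosome 8 set. With Chr3 WT, they had r of -0.173 to -0.0455 for 3p loss and -0.0660 to 0.0829 for 3q gain. The labels do not say whether replicate numbers pair libraries. The block was chosen from the data, not from the labels. The members and lists were chosen with earlier results of these data known.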

Additional observations from a re-analysis of the deposited data

Results flagged for a closer look

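The changes in 3p loss differed between footprints and mRNA for 5 of the 9 tested genes, by the interaction of assay and genotype (limma, adjusted over 10223 genes). The difference, footprint change minus mRNA change on the log2 scale, was 1.42 for DCUN1D1, 0.64 for PRKCI, 0.61 for ACTL6A, -0.96 for TFRC and -0.91 for PIK3CA. Of all genes tested in both assays, 35.4% differed in this way. With RPF replicates 1 and 2 summed into 1 library, DCUN1D1 and PRKCI remained called, and TFRC (adjusted p = 0.0562), PIK3CA (adjusted p = 0.0679) and ACTL6A (adjusted p = 0.0734, limma) did not.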

How the results depend on the processing

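Over 801 values of single genes under alternatives, 720 kept direction and side of the threshold, 64 lost and 5 gained a call, and 12 changed sign. In 3q gain against WT, 3 of the 9 genes were called with no trend, 2 with the replicate block and 3 with the groups compared alone, and leaving out a library gave 0 to 4 called and 110 to 634 genes in all. In 3q gain against 3p loss, 1 was called with median centring, with no trend, with the replicate block, and with the block on these groups alone, a fit added after the data were seen. Leaving out a library there gave 0 to 4 called, 187 to 462 genes in all and a median of 0.44 to 0.67. In 3p loss mRNA it gave 0 to 1 called and 990 to 1458 genes. With RPF replicates 1 and 2 summed, 3 were called in RPF, and in the footprint against mRNA comparison 2 were called, with 2081 genes in all, a setting added after the data were seen. In 8p loss the median was -0.43 with no filter, where SOX2 counts as well, and no call changed. The sign changed only for values near 0. FXR1 in 3p loss mRNA was 0.070 with median centring and -0.089 to 0.035 with a library left out, and TFRC in 3q gain against 3p loss was -0.12 to 0.0020. In RPF with replicates 1 and 2 summed, TP63 was 0.011 and ECT2 0.034, and with a library left out TP63 was -0.12 to 0.021 and ECT2 -0.17 to 0.040. The cause of these shifts was not tested. In the comparisons other than 3q gain against 3p loss, the block called 451 genes in 3q gain, 1509 in 3p loss mRNA, 7980 in RPF and 8456 in 8p loss. Without counts, no interval could be given for TPM.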
